A study of Homo sapiens with 12 samples.

Results

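The comparison is of MDA231 cells carrying a small hairpin RNA against CPT2 (labelled MDA231-shCPT-2, 3 arrays) with the same cell line carrying a scrambled hairpin (labelled MDA231-Scramble, 3 arrays). The 6 arrays were chosen by these labels, out of 12 arrays in the series. The other groups are scramble cells with ETX and cells with a hairpin against CPT1 (shCPT-1), also 3 arrays each. MDA231, usually written MDA-MB-231, is an established human triple-negative breast cancer line. Per the labels the hairpins were delivered with pGIPZ lentiviruses, so the scramble cells carry a lentiviral hairpin too, and no drug was given to either group compared here. The sources used here do not give the hairpin sequences, the number of hairpins per group or whether a group is 1 clone or a pool. An effect of losing CPT2 and an effect of the particular hairpin or line therefore cannot be told apart. The labels name the cell line as the source of every array, describe mouse experiments in the same text, and do not say whether replicate arrays stem from separate cultures. The p-values below thus measure only array-to-array spread within groups, and this spread may be technical.

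CPT2 encodes carnitine palmitoyltransferase 2, an enzyme of the inner mitochondrial membrane. Long-chain fatty acids enter mitochondria as acylcarnitines: CPT1 on the outer membrane makes the acylcarnitine, the carrier SLC25A20 exchanges it across the inner membrane, and CPT2 turns it back into acyl-CoA for beta-oxidation. Tumour cells of several kinds use this route for energy, and the series is about changes made to it. Each array measured RNA as probe set intensities, given below on the log2 scale, where a change of 1 is 2-fold. Intensities of different probe sets cannot be set against each other, so levels are compared for the same gene between groups.

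Of 12886 genes with a tested value, 3295 were higher in shCPT-2 than in scramble and 2642 were lower at an adjusted p under 0.05 (limma, Benjamini-Hochberg), which is 25.6% and 20.5% of the genes tested. Most of these changes were small: the median size among the 5937 called genes was 0.32. Called changes of at least 2-fold numbered 100 upward (0.776%) and 154 downward (1.2%). The arrays of both groups did not overlap for 52.4% of all genes tested. Log2 intensities of arrays of one group correlated at 0.994 to 0.999 over the tested genes, against 0.976 to 0.981 between scramble and shCPT-2 arrays. The actin control signal at the 3′ end of the transcript exceeded that at the 5′ end by 2.07 ± 0.27 in scramble and 1.68 ± 0.23 in shCPT-2 (log2, SD, n = 3 arrays each), a reading that can move with RNA quality. With it as a covariate 2952 genes were higher and 2172 lower, of which 2548 and 1933 were also among the 3295 and 2642. Lists of genes are given below by how many of their tested members passed, beside these percentages, since a list near 25.6% higher and 20.5% lower looks like the array as a whole.

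CPT2 itself was lower in every shCPT-2 array. Its log2 intensities were 7.46, 7.31 and 7.46 in scramble and 6.61, 6.22 and 6.39 in shCPT-2, and the groups did not overlap. The change was -1.0 ± 0.10 (SE, adjusted p = 5.5e-06), a level 2.0-fold lower. A second CPT2 probe set gave -1.27. On 1 of the 3 shCPT-2 arrays the gene lay under the median of all probe sets, so the size of the fall is less certain than its direction. CPT1A, the liver form of CPT1 and the substrate supplier of CPT2, read 9.64, 9.84 and 9.86 in scramble against 9.58, 9.60 and 9.48. That difference of -0.23 ± 0.08 passed with an adjusted p of 0.032. Of the 3 kept CPT1A probe sets only this 1 was called, and the others gave -0.12 and -0.067. The call was lost without scramble replicate 2 (-0.20, adjusted p = 0.10), without scramble replicate 3 (-0.18, 0.10), without shCPT-2 replicate 1 (-0.24, 0.057) and without shCPT-2 replicate 3 (-0.19, 0.12). CPT1C, the brain form, changed by -0.07 ± 0.07 (adjusted p = 0.44). SLC25A20, the carnitine-acylcarnitine carrier, rose by 0.21 ± 0.06 (adjusted p = 0.0090), but by 0.12 with the actin signal as a covariate (0.13). CPT1B, the muscle form, had no tested value, as none of its probe sets is assigned to it alone.

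**Figure D1:**
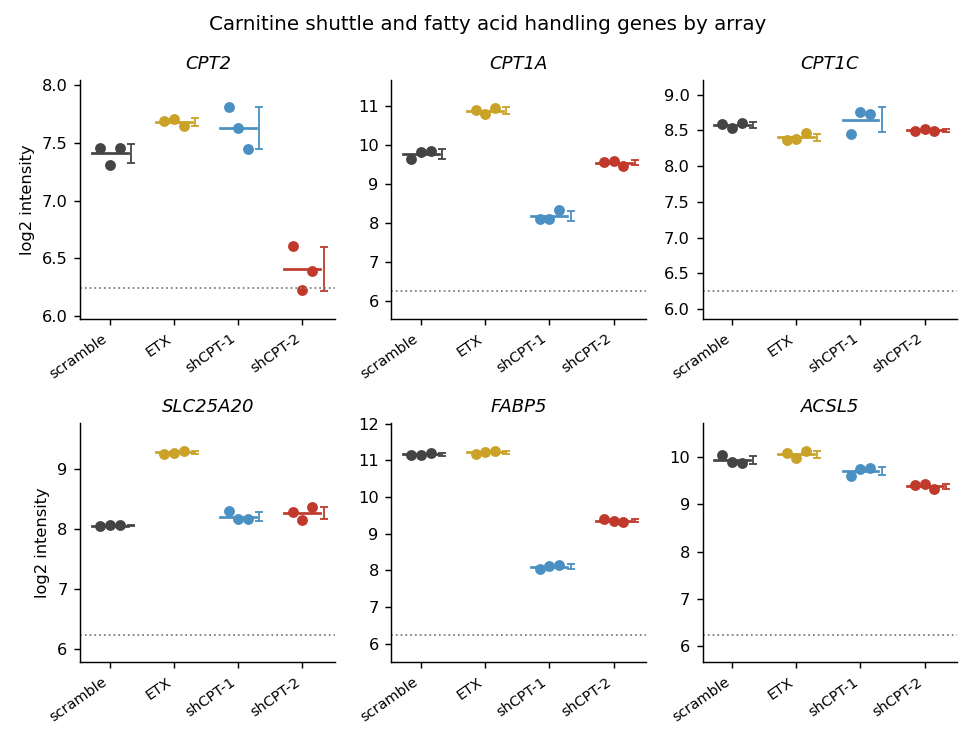
Log2 intensity of 6 genes of fatty acid uptake and the carnitine shuttle in each of the 12 arrays by group; points are arrays, lines are group means, bars to the right are ± 1 SD (n = 3) and the dotted line is the median of all probe sets. CPT2 is at 6.22 to 6.61 in shCPT-2, under all other arrays, while FABP5 is at 9.30 to 9.39 there, between scramble and shCPT-1.

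The fatty acid route was mixed. The 15 tested genes of the carnitine shuttle and fatty acid uptake include CPT2, the target of the hairpin. Of these 15, 6 were lower and 1 was higher, with a median change of -0.15 against 0.0046 for all genes tested. FABP5, which carries fatty acids within the cell, fell most among them, from 11.14, 11.14 and 11.21 to 9.39, 9.36 and 9.30. This was a change of -1.81 ± 0.05 (adjusted p = 1.5e-10), or 3.51-fold. The long-chain acyl-CoA synthetases ACSL4 (-0.63 ± 0.13) and ACSL5 (-0.55 ± 0.06) were lower as well. So was CROT, which makes carnitine esters in peroxisomes (-0.24 ± 0.07). All ACSL5 readings in shCPT-2, 9.32 to 9.42, lay below those in scramble, 9.87 to 10.04.

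Enzymes of mitochondrial beta-oxidation, the spiral that shortens acyl-CoA, moved both ways. Among 21 tested, 6 were higher and 7 lower, and the median change was -0.0048. Without probe sets prone to cross-hybridisation 4 were higher and 2 lower of 15. Here and below this setting drops all probe sets named with _s_at, _x_at or _a_at. A call lost under it does not show that a probe set cross-hybridised. HADH, the dehydrogenase of the third step, fell by 0.52 on the log2 scale, from between 10.15 and 10.28 to between 9.65 and 9.69, though its 3 kept probe sets ranged up to -0.09. ACAA2, the thiolase of the last step, changed by -0.36. PCCA, a subunit of propionyl-CoA carboxylase for odd-chain ends, changed by -0.68. In the other direction, ACADSB, which oxidises short branched acyl-CoA, rose from 6.33, 6.62 and 6.54 to 7.69, 7.14 and 7.64 (0.996 ± 0.12, adjusted p = 3.0e-05). ACADM, the medium-chain dehydrogenase, was 0.28 higher (adjusted p = 0.027), and HADHA, the large trifunctional protein subunit, changed by 0.0039 (not called), though its 3 kept probe sets ran from -0.70 to 0.38 and 1 was called in each direction. The count of higher members fell to 3 without scramble replicate 1, without scramble replicate 2 or without shCPT-2 replicate 1. In peroxisomes 5 of 10 tested oxidation genes were lower and 1 higher. Catalase (CAT, -0.44, a second probe set at -0.19 not called) and PHYH, which starts alpha-oxidation (-0.40), fell. EHHADH, the bifunctional enzyme, rose by 0.55 from under the array medians. Without scramble replicate 3 the higher members numbered 2.

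Genes that the fatty acid receptor family PPAR is known to regulate gave 6 lower and 1 higher of 12, or 2 higher without scramble replicate 3. VNN1, a pantetheinase, changed by -1.40 ± 0.14. PDK4, the kinase that turns off pyruvate dehydrogenase, changed by -0.75 ± 0.17, and ANGPTL4, a lipoprotein lipase inhibitor, by -0.53. VNN1 and PDK4 lay under the array medians in all shCPT-2 arrays, and PDK4 in scramble too, so their folds are less certain. Lipid droplet genes gave 4 higher and 4 lower of 19. G0S2, an inhibitor of triglyceride lipase, fell from 12.70, 12.76 and 12.72 to 11.69, 11.60 and 11.67 (-1.07 ± 0.04, adjusted p = 2.6e-09). DGAT2, which makes triglyceride, was also lower (-0.93 ± 0.09), whereas GPAM, which starts glycerolipid synthesis, was higher (0.71 ± 0.08) and FITM2, which helps droplets form, was 0.58 higher. Without scramble replicate 3 the higher members numbered 7. In cholesterol synthesis 9 of 19 genes were lower and 0 were higher by limma (10 and 0 at an unadjusted p under 0.05), by at most 0.43 in size (HMGCS1, the HMG-CoA synthase). Without scramble replicate 3 there was 1 higher member. Fatty acid synthesis gave 5 higher and 6 lower of 19. Among these, SREBF1, the lipogenic transcription factor, was 0.35 higher and ACSS2, which makes acetyl-CoA from acetate, 0.55 lower (log2 change -0.55). Another SREBF1 probe set gave 0.015, and the SREBF1 call was lost when the probe sets of a gene were averaged. Only 3 members were lower without scramble replicate 2. Without probe sets prone to cross-hybridisation 2 were lower and 5 higher of 13.

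Genes of the response to low oxygen were mainly lower in shCPT-2. Hypoxia-inducible factors are pairs of an alpha subunit (HIF1A, or EPAS1, also called HIF-2 alpha) and ARNT. When oxygen is short they bind sites with the core ACGTG and switch on genes of glucose use, blood vessel growth and cell survival. Of 27 tested genes of this response, 16 were lower and 3 higher, that is 59.3% and 11.1% beside 20.5% and 25.6% of all genes, and the median change was -0.53. VEGFA, the main vessel growth factor, read 12.14, 12.25 and 12.16 in scramble and 10.18, 9.57 and 9.90 in shCPT-2, with no overlap. The fall was -2.30 ± 0.11 (adjusted p = 1.3e-08, 4.92-fold), and its 4 kept probe sets gave -2.30 to -1.62. DDIT4, an inhibitor of mTORC1, went from 10.43, 10.46 and 10.499 to 8.89, 8.50 and 8.72 (-1.76 ± 0.08, adjusted p = 1.1e-08).

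The factors themselves were among the lower genes. HIF1A had log2 intensities of 12.71, 12.80 and 12.84 in scramble and 11.88, 11.50 and 11.62 in shCPT-2, a change of -1.12 ± 0.08 (adjusted p = 5.1e-07). EPAS1 went from 10.18, 10.18 and 10.35 to 9.41, 9.16 and 9.29, a change of -0.95 ± 0.08 (adjusted p = 1.3e-06). Both were lower on every shCPT-2 array than on any scramble array. ARNT changed by -0.18 and VHL, which marks the alpha subunits for destruction, by -0.36, both called. EGLN1, an oxygen-sensing hydroxylase of the alpha subunits, changed by 0.11 (not called). Further falls were in NDRG1 (-1.39), a stress-induced gene; PFKFB4 (-1.30), which sets a glycolytic regulator; ANKRD37 (-0.79); KDM3A (-0.77), a histone demethylase; BHLHE40 (-0.64), a repressor; and P4HA1 (-0.60), a collagen prolyl hydroxylase. A second PFKFB4 probe set gave -0.19. Against this run, LOX, which cross-links collagen, rose from 9.59, 9.55 and 9.67 to 10.79, 10.73 and 10.76 (1.16 ± 0.04, adjusted p = 1.9e-09). HILPDA (0.20) and P4HA2 (0.13) were slightly higher, and BNIP3, a mitophagy receptor, read 11.74 ± 0.02 and 11.76 ± 0.08 (SD, n = 3 arrays each; change 0.02, not called). The count of higher members was 1 without shCPT-2 replicate 1.

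The promoters of DDIT4 and ANKRD37 are shown because both genes fell and their windows hold the ACGTG core. They are the 250 bases before the transcription start, from RefSeq on GRCh38.p14, with capitals on each match of ACGTG or its reverse complement CACGT. DDIT4 is at chr10:72273674-72273923 on the plus strand and ANKRD37 at chr4:185396591-185396840 on the plus strand.
DDIT4: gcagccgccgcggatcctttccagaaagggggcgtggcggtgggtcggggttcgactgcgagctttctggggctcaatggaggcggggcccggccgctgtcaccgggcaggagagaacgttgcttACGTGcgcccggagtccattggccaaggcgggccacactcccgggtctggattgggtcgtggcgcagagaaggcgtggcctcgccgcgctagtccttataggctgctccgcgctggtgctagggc
ANKRD37: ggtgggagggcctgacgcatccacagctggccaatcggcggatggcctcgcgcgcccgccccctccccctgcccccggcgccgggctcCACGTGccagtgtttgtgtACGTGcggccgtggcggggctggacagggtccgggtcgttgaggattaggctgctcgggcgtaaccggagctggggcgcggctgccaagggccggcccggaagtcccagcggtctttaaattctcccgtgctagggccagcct
In DDIT4 the match begins 125 bases before the start. ANKRD37 holds 3 overlapping or neighbouring matches, the first beginning 162 bases before the start. The core is short and common: 21.6% of 27305 promoter windows (250 bases before and 50 after a start) hold it on either strand. Among the 21 tested hypoxia genes with an entry in the promoter table, 10 windows hold it. Of the 12 lower ones it is in 4: P4HA1, ANKRD37, DDIT4 and BHLHE40. A match is a description of the letters and not a sign of binding.

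Glycolysis genes moved with smaller sizes. Of 21 tested, 10 were lower and 3 higher, with a median of -0.12. Besides PFKFB4, the glucose transporters SLC2A3 (-0.32) and SLC2A1 (-0.23), pyruvate kinase PKM (-0.35) and lactate dehydrogenase LDHA (-0.18) were lower, and LDHB was 0.31 higher. LDHA stayed bright, at 13.75 to 13.79 in scramble and 13.58 to 13.61 in shCPT-2. The lower members numbered 6 without scramble replicate 1. The pyruvate dehydrogenase and TCA cycle list gave 9 higher and 12 lower of 28. Without probe sets prone to cross-hybridisation these were 3 higher and 6 lower of 18, and with the actin covariate 5 were higher. GLUD1, which feeds glutamate into the cycle, was lower (-0.59 ± 0.07), and IDH3A, an NAD-dependent isocitrate dehydrogenase subunit, was higher (0.72 ± 0.11), although a second IDH3A probe set gave 0.09. The kinases PDK3 (-0.50, with a further probe set at -0.0077) and PDK1 (-0.30) were lower.

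Respiratory chain genes did not share a direction. Complex I gave 8 higher and 9 lower of 33, from NDUFAB1 (0.71) and NDUFB5 (0.65) to NDUFB10 (-0.38). Its lower members numbered 5 without scramble replicate 1 or shCPT-2 replicate 1 and 4 without shCPT-2 replicate 3, and its higher members 5 without scramble replicate 1. With the actin signal as a covariate 3 were lower and 5 higher. Complexes III and IV gave 6 higher and 7 lower of 18. In the fit with the actin covariate NDUFAB1 was 0.40 and IDH3A 0.45 higher. ATP synthase gave 2 higher and 3 lower of 16, and the 2 calls upward were lost without scramble replicate 1, scramble replicate 2, shCPT-2 replicate 1 or shCPT-2 replicate 3, while 4 members were higher without scramble replicate 3. By contrast, genes that maintain mitochondrial DNA and its expression were more often higher, with 9 higher and 2 lower of 16 (56.3% and 12.5%) and a median of 0.20. TFB2M, a mitochondrial transcription factor, rose by 0.54 ± 0.08, the DNA polymerase POLG by 0.32 and the DNA packaging factor TFAM by 0.22. Further POLG probe sets gave 0.26 and 0.15, not called. The 2 lower members were TFB1M, which modifies mitochondrial ribosomal RNA (-0.39 ± 0.05, adjusted p = 4.4e-05, 3 probe sets at -0.42 to -0.31), and the nuclear receptor ESRRA (-0.19), and 1 was lower with the actin covariate.

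Genes of MHC class II antigen presentation were lower with 2 exceptions. Class II molecules are pairs of alpha and beta chains that carry peptides to the cell surface for CD4 T cells. CD74, the invariant chain, guards the groove until HLA-DM loads the peptide, and CIITA with the RFX factors switches the genes on. Of 12 tested genes 10 were lower and 1 was higher (83.3% and 8.33%), and the median change was -0.52. HLA-DRA, the DR alpha chain, read 8.51, 8.49 and 8.69 in scramble and 6.83, 6.53 and 7.07 in shCPT-2. This was a change of -1.75 ± 0.13 (adjusted p = 3.8e-07), and its second probe set gave -1.59. CD74 fell from 10.95, 10.89 and 10.62 to 9.44, 9.37 and 9.39 (-1.42 ± 0.07, adjusted p = 1.6e-08), although a second, less bright probe set gave -0.13. Neither gene overlapped between groups.

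HLA-DMA, the alpha chain of the peptide loader, went from 7.99, 8.06 and 7.78 to 7.19, 6.92 and 7.10 (-0.87 ± 0.09). HLA-DRB1 (-1.22 ± 0.06) and HLA-DPA1 (-0.98 ± 0.07) also fell. The class II genes are close copies, so their probe sets may read each other. A second HLA-DPA1 probe set gave -0.24, and 1 shCPT-2 array of that gene lay under its median. CTSS, the protease that trims the invariant chain, changed by -0.68. The switch itself did not follow: CIITA read 6.44, 6.40 and 6.48 against 6.22, 6.44 and 6.39, with overlapping groups (-0.09 ± 0.10, adjusted p = 0.51). Of its partners, RFX5 (-0.25) and RFXANK (-0.25) were lower. RFXAP was higher, from 6.14, 6.35 and 6.15 to 7.78, 7.25 and 7.55 (1.31 ± 0.13, adjusted p = 4.1e-06). CIITA and RFXAP in scramble lay near the array medians, where changes are less certain.

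The promoters of CD74 and HLA-DMA are shown because both genes fell and hold CCAAT or its reverse complement ATTGG, the letters of the class II Y box, the site of the factor NF-Y. Capitals mark them, CCAAT in CD74 and ATTGG in HLA-DMA, within the 250 bases before the start (RefSeq, GRCh38.p14). CD74 is at chr5:150412911-150413160 on the minus strand and HLA-DMA at chr6:32953098-32953347 on the minus strand.
CD74: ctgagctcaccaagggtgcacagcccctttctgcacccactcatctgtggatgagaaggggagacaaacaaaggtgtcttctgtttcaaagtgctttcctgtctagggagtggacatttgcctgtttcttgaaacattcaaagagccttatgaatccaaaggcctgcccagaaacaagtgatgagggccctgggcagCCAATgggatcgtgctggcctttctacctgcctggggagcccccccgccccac
HLA-DMA: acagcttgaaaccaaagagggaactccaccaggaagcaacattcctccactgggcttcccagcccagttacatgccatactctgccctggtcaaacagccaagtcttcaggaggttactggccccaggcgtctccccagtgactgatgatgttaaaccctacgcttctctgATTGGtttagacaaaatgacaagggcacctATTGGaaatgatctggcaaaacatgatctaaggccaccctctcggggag
In CD74 the match begins 53 bases before the start, and HLA-DMA holds 2, at 79 and 49 bases. These letters are in 35.7% of all promoter windows. Among class II list genes with an entry they are in 6 of 9, and in 6 of the 8 that were lower, which are HLA-DRB1, HLA-DQB1, HLA-DMA, HLA-DMB, CD74 and RFX5.

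Interferon-stimulated genes, which cells use against viruses and which overlap in control with antigen presentation, were lower in part. Of 39 tested, 19 were lower and 5 higher (48.7% and 12.8%), with a median of -0.23. BST2, also called tetherin, holds budding virus at the membrane. It read 7.77, 8.26 and 8.29 in scramble and 6.42, 6.69 and 6.17 in shCPT-2 (-1.68 ± 0.14, adjusted p = 1.6e-06). IFITM1, a membrane protein that blocks viral entry, went from 8.58, 8.61 and 8.48 to 7.31, 7.38 and 7.26 (-1.24 ± 0.05, adjusted p = 6.1e-09). IRF1, a transcription factor of this response, read 9.21, 9.29 and 9.25 against 8.31, 8.22 and 8.31 (-0.97 ± 0.05). No array of either group overlapped for these 3 genes. SAMD9L (-1.28), UBE2L6 (-0.74), IFIH1 (-0.61) and IFIT2 (-0.45) were lower as well. IFI44L (-1.60) and TRIM22 (-1.59) lay under the array medians on all shCPT-2 arrays. The 5 higher members were MX1 (0.51), MX2 (0.43), IFI6 (0.39), OAS1 (0.35) and USP18 (0.32), so classical members of the group lay on both sides. OAS1 was under the array medians on all 6 arrays. STAT-linked IRF9 (-0.06) and IFIT3 (0.01) were not called.

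The promoters of IFITM1 and BST2 are shown because both genes fell and hold the core letters of the interferon-stimulated response element, GAAA, any 2 bases and GAAA again, in capitals (RefSeq, GRCh38.p14, 250 bases before the start). IFITM1 is at chr11:313790-314039 on the plus strand and BST2 at chr19:17405631-17405880 on the minus strand.
IFITM1: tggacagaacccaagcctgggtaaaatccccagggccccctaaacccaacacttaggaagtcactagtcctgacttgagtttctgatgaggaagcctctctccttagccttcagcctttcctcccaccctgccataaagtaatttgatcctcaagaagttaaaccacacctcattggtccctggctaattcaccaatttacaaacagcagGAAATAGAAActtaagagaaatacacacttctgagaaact
BST2: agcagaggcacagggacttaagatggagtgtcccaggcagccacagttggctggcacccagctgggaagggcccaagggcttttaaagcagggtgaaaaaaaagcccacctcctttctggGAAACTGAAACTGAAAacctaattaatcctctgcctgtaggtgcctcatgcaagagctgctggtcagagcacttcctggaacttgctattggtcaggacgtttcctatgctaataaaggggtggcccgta
The match begins 40 bases before the start in IFITM1. In BST2 there are 2 overlapping matches, at 130 and 124 bases. On either strand these letters are in 3.65% of all promoter windows. They are in 19 of the 31 interferon list genes with an entry and in 8 of the 15 lower ones, namely IFI44L, IFIH1, IFIT1, IFITM1, ISG15, SAMD9, BST2 and TAP1.

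**Figure D2:**
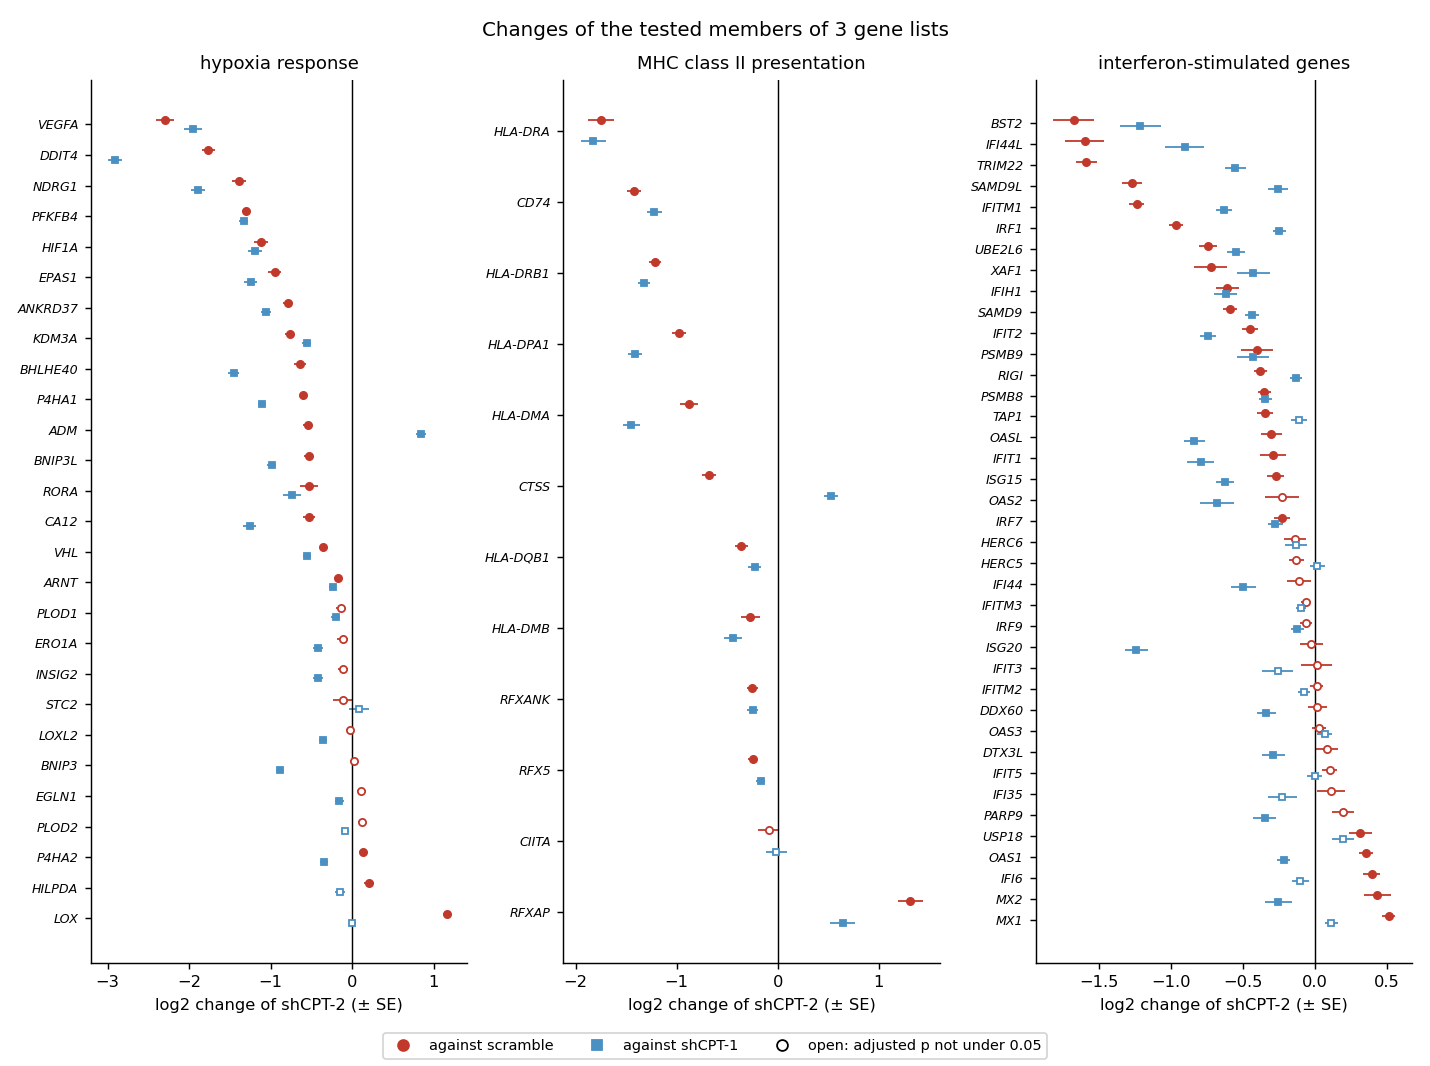
Log2 change of each tested member of the hypoxia, MHC class II and interferon lists in shCPT-2 against scramble (red circles) and against shCPT-1 (blue squares), with SE bars; open symbols have an adjusted p not under 0.05. VEGFA is at -2.30 and -1.95, HLA-DRA at -1.75 and -1.83, and BST2 at -1.68 and -1.22, while LOX, RFXAP and MX1 lie at 1.16, 1.31 and 0.51 against scramble.

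Signalling by TGF-beta and BMP, secreted factors that act through SMAD proteins, gave 15 lower and 7 higher of 34 (44.1% and 20.6%), with a median of -0.10. The feedback inhibitors of the pathway were among the largest falls. SMAD6 went from 7.73, 7.68 and 7.59 to 5.90, 5.65 and 5.98 (-1.82 ± 0.08, adjusted p = 7.0e-09), but its 3 kept probe sets ranged up to -0.17. SMAD7, which blocks the TGF-beta receptor, changed by -1.25 ± 0.07. PMEPA1, a TGF-beta target that restrains SMADs, read 9.91, 9.82 and 9.83 against 8.17, 8.02 and 8.07 (-1.77 ± 0.05), and its 3 probe sets gave -2.62 to -1.77. SMAD6 and SMAD7 were under the array medians in all shCPT-2 arrays, as was BMP2, a ligand (-1.93 ± 0.11). LTBP1, which stores latent TGF-beta (-1.31), INHBB, an activin subunit (-1.22), and the co-receptor TGFBR3 (-0.80) were lower. The activin inhibitor FST (0.69), the ligand TGFB2 (0.49), the activin subunit INHBA (0.51) and ID3, a BMP target (0.70), were higher. ID1, another BMP target, changed by 0.05 (not called).

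**Figure D3:**
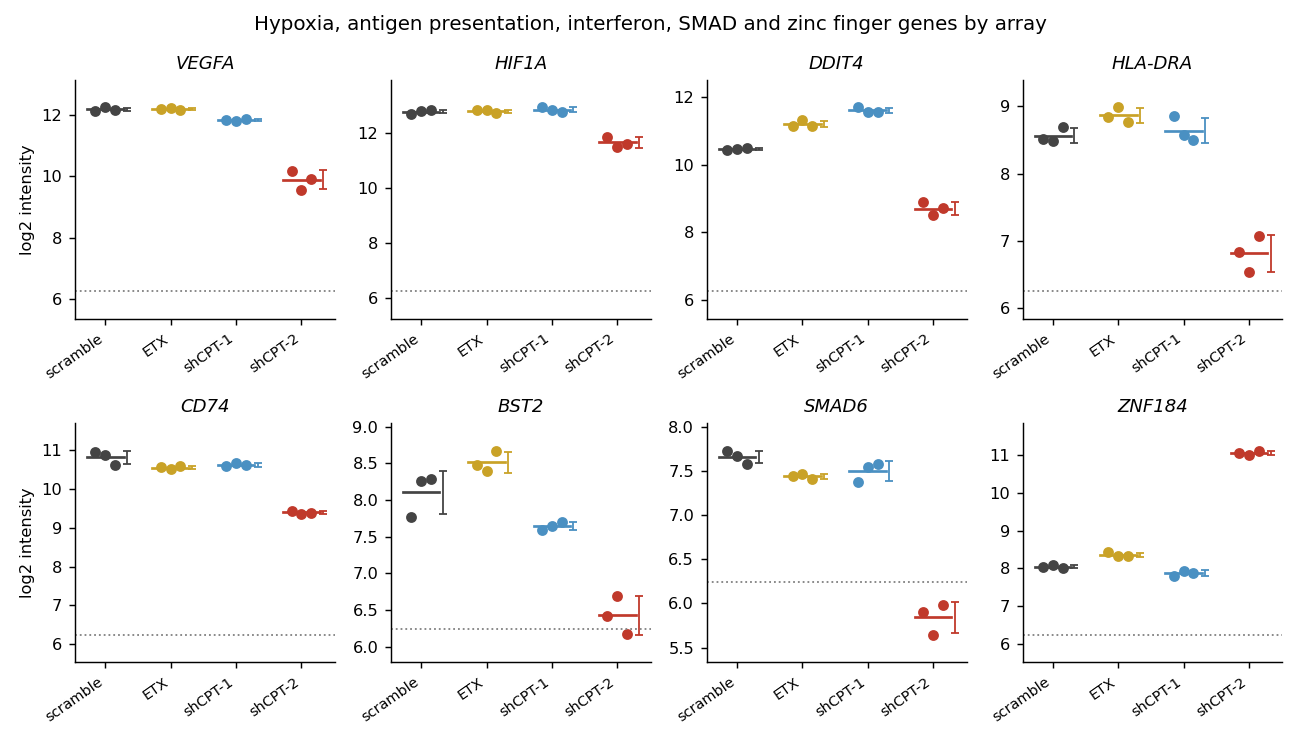
Log2 intensity of VEGFA, HIF1A, DDIT4, HLA-DRA, CD74, BST2, SMAD6 and ZNF184 in each of the 12 arrays by group; points are arrays, lines are means, bars are ± 1 SD (n = 3) and the dotted line is the median of all probe sets. In shCPT-2 the first 7 genes lie below all other arrays, with VEGFA at 9.57 to 10.18, and ZNF184 lies above them at 11.01 to 11.12.

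Outside these groups the largest rise was in ZNF184, a zinc finger gene, from 8.02, 8.10 and 8.02 to 11.05, 11.01 and 11.12 (3.01 ± 0.05, adjusted p = 2.7e-12). ESM1, a proteoglycan best known from endothelium, rose from 7.46, 7.25 and 7.48 to 9.81, 9.86 and 9.83 (2.44 ± 0.07), measured by 1 probe set of a kind prone to cross-hybridisation. NKX2-1, a lung and thyroid transcription factor, and the neighbouring gene SFTA3 rose by 1.84 and 2.09. A second NKX2-1 probe set gave 0.24. LCP1, an actin bundling protein of blood cells, was 1.84 higher, and the matrix protein MATN2 2.03 higher.

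The next rises included several secreted or signalling genes. EDN1, the vasoconstrictor endothelin, read 9.91, 10.002 and 10.10 in scramble and 11.29, 11.31 and 11.36 in shCPT-2 (1.32 ± 0.07, adjusted p = 1.5e-08). The growth factor FGF1 went from 7.76, 7.73 and 7.70 to 8.99, 9.02 and 9.04 (1.28 ± 0.06). PTGER4, a prostaglandin E2 receptor, went from 8.74, 8.81 and 9.06 to 10.24, 9.89 and 10.12 (1.21 ± 0.09). All 3 were above every scramble array. DUSP1, a phosphatase that turns off MAP kinases, rose by 1.27 ± 0.14, with a second probe set at -0.16, and SLAMF7, an immune receptor, by 1.29 ± 0.05, with its probe sets ranging down to 0.17. ADAMTS1, a matrix protease with antiangiogenic domains, rose by 1.49 ± 0.08. CMTR2, an RNA cap methyltransferase, varied most within shCPT-2, at 9.40, 8.42 and 9.31, and its change of 1.53 had an SE of 0.21. The other large rises were FBXL16 (1.40), RANGRF (1.39), MGC12916 (1.67) and the noncoding RNAs AFAP1-AS1 (2.23), LINC01111 (1.46), LINC02582 (1.38) and LINC00973 (1.21).

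Of the largest falls, PLCB1, a phospholipase C that makes the messengers IP3 and diacylglycerol, went from 9.70, 9.75 and 9.75 to 6.01, 5.63 and 5.93 (-3.88 ± 0.12, adjusted p = 2.4e-10, 14.7-fold). EHF, an epithelial ETS transcription factor, went from 9.89, 9.92 and 9.70 to 6.20, 6.11 and 6.23 (-3.65 ± 0.06, adjusted p = 2.7e-12). Both were under the array medians on all 3 shCPT-2 arrays, so the fold is less certain than the fall. A second EHF probe set gave -1.76. SPDEF, a further ETS factor of epithelia, fell by 1.90 on the log2 scale, its 5 probe sets ranging up to -0.22.

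Transport, amino acid and steroid genes also lay in this group. SLCO4A1, an organic anion transporter, read 11.69, 11.74 and 11.70 against 9.25, 8.95 and 9.07 (-2.62 ± 0.07), and the antisense RNA at its locus, SLCO4A1-AS1, changed by -2.04 ± 0.14. KYNU, which breaks down kynurenine from tryptophan, read 10.84, 10.91 and 10.97 against 8.65, 8.32 and 8.46 (-2.43 ± 0.07). Its change was -1.55 when probe sets prone to cross-hybridisation were left out. AKR1C3, a steroid and prostaglandin reductase, read 10.19, 10.04 and 10.10 against 8.38, 8.14 and 8.15 (-1.89 ± 0.06), and its close relatives AKR1C1 (-0.69) and AKR1C2 (-1.0), whose probes may read each other, were lower too. WFS1, a protein of the endoplasmic reticulum membrane, fell by 1.71 on the log2 scale and ENPP1, a pyrophosphatase of the cell surface, by 1.74. The other named falls were SRPX (-2.72), FAM133A (-2.67), MAGEA6 (-2.41), SHISA2 (-2.31), COXFA4L3 (-2.12), the pseudokinase TRIB2 (-1.84) and SVIP (-1.82). MAGEA6 belongs to a family of near-identical genes and its value may include relatives.

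**Figure D4:**
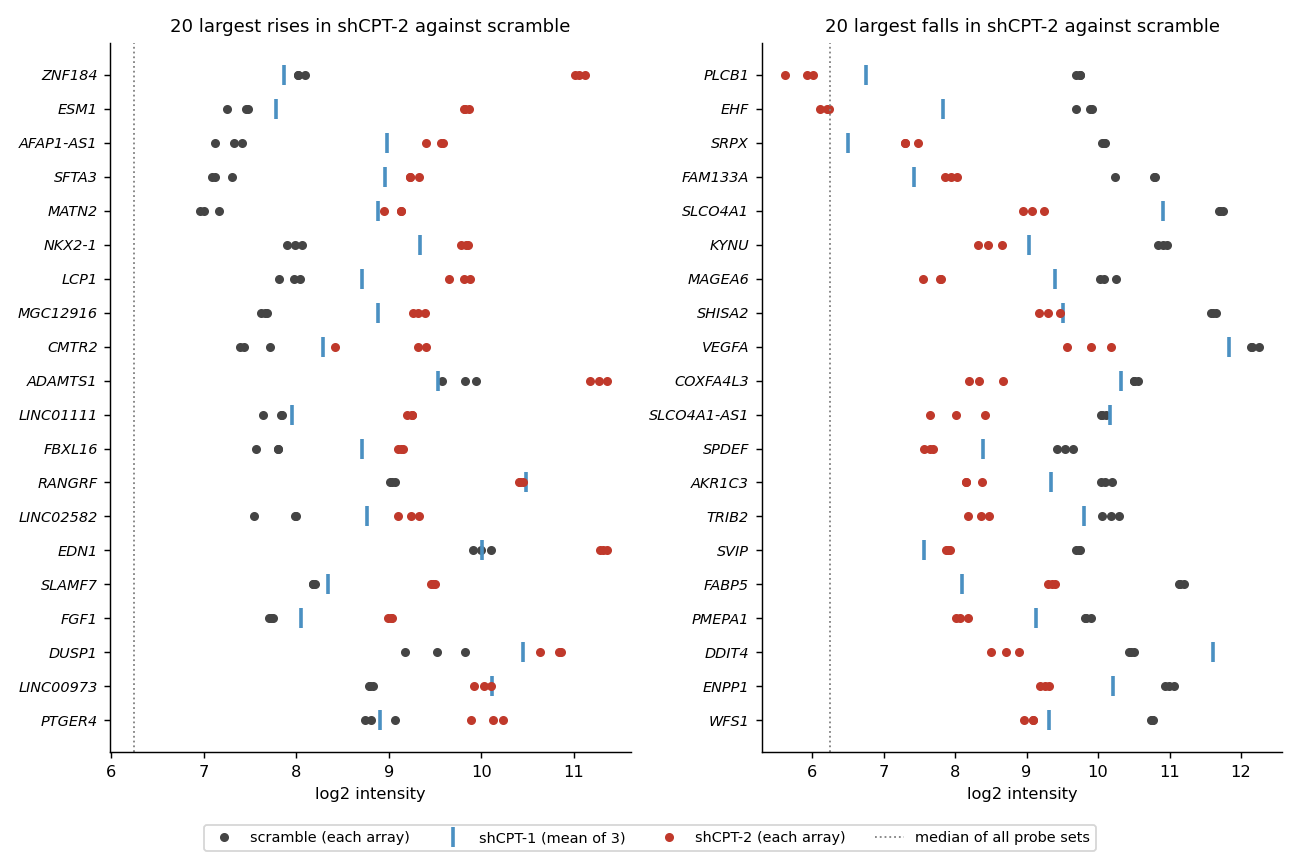
Log2 intensity of the 20 genes with the largest rises (left) and the 20 with the largest falls (right) in shCPT-2 against scramble; dots are the 3 arrays of each group, blue ticks are shCPT-1 means (n = 3) and the dotted line is the median of all probe sets. ZNF184 is at 11.01 to 11.12 in shCPT-2 with scramble at 8.02 to 8.10, and PLCB1 is at 5.63 to 6.01 with scramble at 9.70 to 9.75.

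Stress programmes were divided. ATF4 drives the integrated stress response, which supplies amino acids and tRNA charging enzymes. Of 37 tested genes of this response, 21 were higher and 5 lower (56.8% and 13.5%), with a median of 0.24. CTH, which makes cysteine, rose from 8.12, 8.01 and 8.09 to 9.05, 9.05 and 9.11 (0.996 ± 0.05, adjusted p = 7.5e-09). PCK2, the mitochondrial phosphoenolpyruvate carboxykinase (0.73), ASNS, asparagine synthetase (0.61), the transporter SLC7A5 (0.51) and MTHFD2 of mitochondrial folate metabolism (0.46) were higher. GDF15, a stress hormone, was 0.66 higher from under the array medians. DDIT3 (0.15), CHAC1 (0.18) and TRIB3 (-0.04), which stress also induces, were not called, and DDIT4 fell. ATF4 itself changed by -0.16 (adjusted p = 0.037). Of 21 genes for chaperones and the unfolded protein response 9 were lower and 4 higher. HYOU1, an ER chaperone, fell from between 11.84 and 12.05 to between 11.03 and 11.15 (-0.89 ± 0.06), while HSPA5, the main one, changed by 0.08 (not called). EDEM1, which sends misfolded proteins for breakdown, was 0.81 higher.

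Lysosome and autophagy genes gave 19 higher and 5 lower of 36 (52.8% and 13.9%), with a median of 0.18. MITF, a transcription factor of the family that controls lysosome genes, rose from 10.25, 10.22 and 10.18 to 11.30, 11.12 and 11.25 (1.01 ± 0.05, adjusted p = 1.6e-08). MAP1LC3B, the autophagosome coat protein LC3B, read 9.93, 9.90 and 9.95 against 10.67, 10.71 and 10.65 (0.75 ± 0.04), and BECN1, which starts autophagosomes, was 0.59 higher. The lysosomal enzymes GLA (-0.71) and CTSD (-0.46) were lower, and GAA (0.59) and CTSH (0.54) higher. The lower members numbered 3 without shCPT-2 replicate 1. When probe sets prone to cross-hybridisation were left out, 8 of the 25 members still tested were higher, a share close to that of all genes there, where 26.1% of 9855 were higher and 19.2% lower. The same setting left 12 higher of 23 for ATF4 targets, 9 lower of 16 for hypoxia, 6 lower of 8 for class II and 12 lower of 27 for interferon genes. Of 17 p53 targets 8 were higher and 1 lower (GADD45A at 0.66 the largest rise), with 4 higher without scramble replicate 1 and 5 without shCPT-2 replicate 3. The lower one, TP53INP1, lost its call without scramble replicate 1, scramble replicate 2 or shCPT-2 replicate 2.

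The YAP and TEAD pathway, through which cells answer tension and crowding, gave 15 higher and 4 lower of 28 (53.6% and 14.3%), with a median of 0.18. Classical targets were among the higher genes. ANKRD1 read 9.67 to 9.75 in scramble and 10.47 to 10.61 in shCPT-2 (0.83 ± 0.06, adjusted p = 6.7e-07). CCN2, a matricellular protein, changed by 0.77 ± 0.14 and CCN1 by 0.31. F3, tissue factor (0.57), and AMOTL2, a feedback inhibitor (0.53), were higher too. The coactivator YAP1 changed by 0.05 (not called), and its partner WWTR1, also called TAZ, was lower (-0.41).

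**Figure D5:**
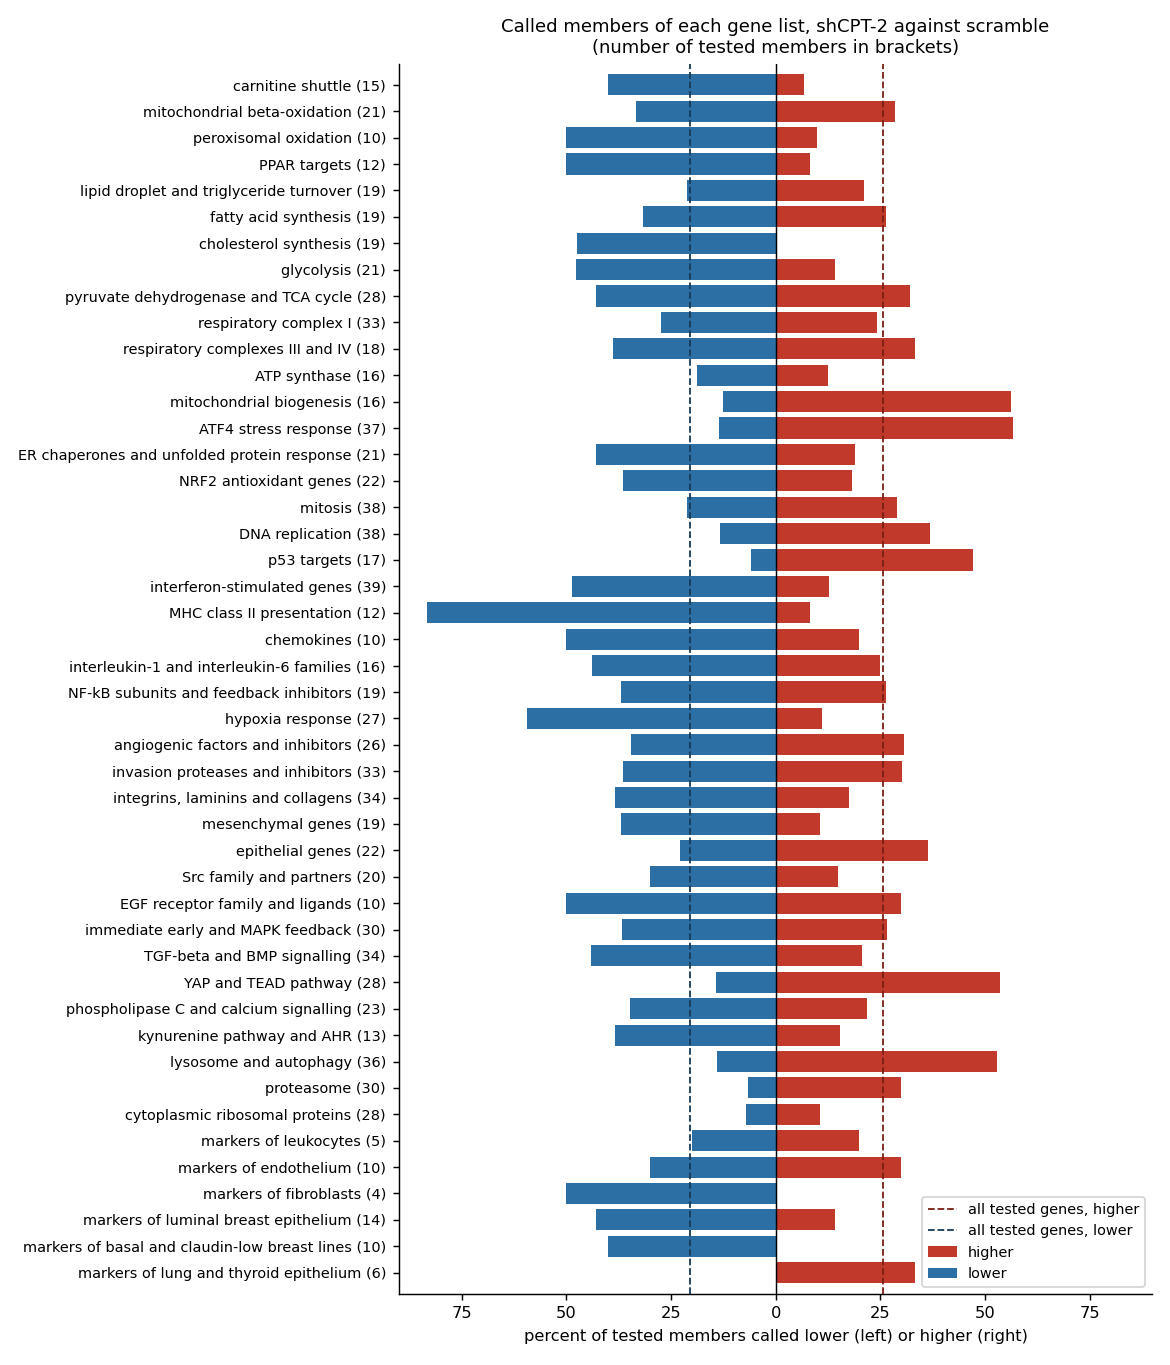
Share of the tested members of each of 46 gene lists that was called lower (blue, left) or higher (red, right) in shCPT-2 against scramble, with the number tested in brackets; dashed lines are the shares over all tested genes, 20.5% lower and 25.6% higher. MHC class II presentation reaches 83.3% lower and hypoxia response 59.3%, and the ATF4 list reaches 56.8% higher and the lysosome list 52.8%.

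Genes of the cell surface and matrix changed on both sides. Integrins, laminins and collagens gave 13 lower and 6 higher of 34. COL4A5, a basement membrane collagen (-3.16 ± 0.17), ITGB8, an integrin that activates TGF-beta (-2.57 ± 0.12), and COL6A3 (-1.86 ± 0.08) fell to levels under the array medians. ITGA1, a collagen receptor chain (-1.04), and LAMA5, a laminin chain (-0.89), were lower, and COL8A1 (1.13) and COL12A1 (0.85) higher. Invasion proteases and their inhibitors gave 10 higher and 12 lower of 33. MMP9, the gelatinase, went from 8.58, 8.33 and 8.55 to 6.79, 6.50 and 6.80 (-1.79 ± 0.10, adjusted p = 3.5e-08), whereas MMP1, the collagenase, rose from 12.15, 12.23 and 12.28 to 12.85, 12.83 and 12.86 (0.63 ± 0.04). The protease inhibitors TIMP1 (-0.45), TIMP2 (-0.25) and TIMP3 (-0.77) were lower, and so was TIMP4 (-0.996), under the array medians.

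Among mesenchymal genes 7 were lower and 2 higher of 19. S100A4, a calcium-binding protein linked to metastasis, read 9.23, 9.17 and 9.24 against 8.10, 7.88 and 8.06 (-1.20 ± 0.06), and SNAI2 (-0.53) and fibronectin FN1 (-0.47) were lower. Vimentin (VIM) changed by 0.02 (not called). TAGLN, an actin-binding protein, was 1.06 higher, and a second probe set gave 0.94. Without probe sets prone to cross-hybridisation 1 TAGLN probe set remained, at 0.0063, and the call was lost (adjusted p = 0.95). ZEB2, an EMT factor, was the other higher member (0.48), and the list had 1 higher member without shCPT-2 replicate 3. Epithelial genes gave 8 higher and 5 lower of 22. CLDN1, a tight junction protein, rose from 6.79, 6.82 and 6.63 to 8.15, 7.86 and 8.05 (1.27 ± 0.08), and CLDN4 was 0.81 higher, beside the fall of EHF.

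Cytokine and growth factor genes were mixed as well. Of 16 genes of the interleukin-1 and interleukin-6 families 7 were lower and 4 higher. The lower members numbered 4 without scramble replicate 2, shCPT-2 replicate 2 or shCPT-2 replicate 3. IL11 fell from 10.81, 10.77 and 10.75 to 9.52, 9.33 and 9.35 (-1.37 ± 0.05, adjusted p = 2.0e-09) and IL1B from 9.75, 9.82 and 10.07 to 9.06, 8.61 and 8.83 (-1.04 ± 0.11). IL1R1, the interleukin-1 receptor, was lower (-1.08) and under the array medians. IL24 (1.09) and the receptor IL6R (1.10) were higher. Chemokine genes gave 5 lower and 2 higher of 10: the neutrophil chemokine CXCL3 changed by -0.60, while CXCL8 changed by -0.11 (not called). CXCR4, a receptor linked to homing of tumour cells, went from 8.54, 8.46 and 8.50 to 9.34, 9.39 and 9.34 (0.86 ± 0.05). The other higher member, CXCL1 (0.25), lost its call without scramble replicate 1, scramble replicate 2, shCPT-2 replicate 1 or shCPT-2 replicate 3. NF-kB subunits and feedback genes gave 7 lower and 5 higher of 19, with the inhibitor NFKBIA at -0.83 and the inhibitor TNFAIP3 at 0.43. The higher members numbered 3 without shCPT-2 replicate 1.

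In angiogenic factors and inhibitors 9 were lower and 8 higher of 26. Beside VEGFA, VEGFC (-0.60), VEGFB (-0.52) and ANGPT1 (-0.83, under the array medians in shCPT-2) were lower, and the inhibitory semaphorin SEMA3F (0.73) and the matrix protein ECM1 (1.03) were higher. Of 10 EGF receptor family genes 5 were lower and 3 higher. The lower ones included the ligand TGFA (-0.86 ± 0.04, its second probe set at -0.25) and the receptor inhibitors LRIG1 (-0.97) and ERRFI1 (-0.46). EGFR itself changed by -0.34, with another of its 8 kept probe sets called higher (0.20). The higher ones included the ligands EREG (0.78) and NRG1 (0.59), but NRG1 was -0.32 without probe sets prone to cross-hybridisation. Immediate early and MAP kinase feedback genes gave 8 higher and 11 lower of 30. MYC, the growth regulator, read 10.06, 10.33 and 10.72 in scramble and 11.60, 11.09 and 11.64 in shCPT-2, without overlap (1.07 ± 0.18, adjusted p = 0.00035). In both groups it was highest where the actin 3′ excess was smallest (1.76 in scramble replicate 3, 1.45 in shCPT-2 replicate 3). FOSL1, an AP-1 subunit, was lower (-0.73), and so were the MAP kinase feedback genes DUSP4 (-0.61), SPRY1 (-0.57) and SPRY4 (-0.49). DUSP5, which acts on ERK in the nucleus, was 0.78 higher.

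For the Src kinases, 6 genes were lower and 3 higher of 20. SRC read 7.71, 7.78 and 7.52 in scramble and 7.83, 7.70 and 7.69 in shCPT-2, with overlapping groups, and its difference of 0.07 ± 0.10 was not called (adjusted p = 0.59). It was -0.0032 without scramble replicate 3. PAG1, the membrane adaptor that recruits the Src inhibitor CSK, fell from 9.65, 9.63 and 9.65 to 8.80, 8.73 and 8.70 (-0.90 ± 0.05), and YES1, a Src family kinase, was 0.37 higher. In the kynurenine and AHR list 5 were lower and 2 higher of 13. The receptor AHR changed by -0.56 and its target CYP1B1 by -1.52, while AHRR, its repressor, was 0.67 higher. That list had 1 higher member without shCPT-2 replicate 3. In the NRF2 antioxidant list 8 were lower and 4 higher of 22, and the AKR1C genes held the largest falls. Without probe sets prone to cross-hybridisation 3 were lower and 3 higher of 16, beside 19.2% and 26.1% of all genes there. AKR1C2 lay above the array median on only 1 of the 3 shCPT-2 arrays. Phospholipase C and calcium genes gave 8 lower and 5 higher of 23. Besides PLCB1, the G protein GNA15 was lower (-0.74) and PLCG2 was 0.64 higher. The lower members of that list numbered 5 without shCPT-2 replicate 1.

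Mitosis genes gave 11 higher and 8 lower of 38, shares close to those of all genes, with a median of 0.0045. AURKB, a kinase of chromosome segregation, rose from 10.43, 10.42 and 10.56 to 11.47, 11.48 and 11.53 (1.02 ± 0.05, adjusted p = 1.5e-08), and KIF4A, a mitotic kinesin, was lower (-0.51). The lower members numbered 5 without shCPT-2 replicate 1 and 4 without shCPT-2 replicate 3. DNA replication genes gave 14 higher and 5 lower of 38 (36.8% and 13.2%), with ORC1 (0.52), MCM10 (0.36) and CCNE1 (0.32) higher and MCM6 (-0.33) lower. Proteasome genes gave 9 higher and 2 lower of 30, by at most 0.37 in size (PSMC3). The higher ones numbered 5 without scramble replicate 1, 15 without scramble replicate 3 and 2 with the actin covariate. Ribosomal protein genes gave 3 higher and 2 lower of 28. The higher ones numbered 1 without scramble replicate 1, scramble replicate 2, shCPT-2 replicate 1 or shCPT-2 replicate 3. The lower ones numbered 0 without shCPT-2 replicate 1 and 1 without shCPT-2 replicate 3.

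Markers of the labelled line and of other cells were read alongside. In bulk RNA, fewer cells of a type and less RNA per cell cannot be told apart. VIM reached a log2 intensity of 14.5, and CDH1 and PGR did not exceed the array median on any of the 6 arrays. Of the receptors that a triple-negative label leaves out, ESR1 exceeded the median with 4 of its 9 probe sets on some array, up to 7.18, and ERBB2 read up to 9.32. The epithelial EPCAM read 8.90 to 9.16. None of these 3 genes was called against scramble (ESR1 at 0.01, ERBB2 at 0.14). Summed linear intensities of 10 markers of basal and claudin-low lines were 65473 to 68083 in scramble and 62467 to 65790 in shCPT-2, with 4 members lower and 0 higher by limma (1 higher without scramble replicate 3 or shCPT-2 replicate 2). For 14 luminal markers the sums were 16033 to 17084 and 13485 to 14262, with 6 lower and 2 higher. For leukocytes 5 of 17 markers were kept, and their sum was 579 to 619 in scramble and 1165 to 1277 in shCPT-2. LCP1 was the 1 higher member and CSF1R the 1 lower (-0.52, under the array medians on all shCPT-2 arrays). The defining marker PTPRC was never above the array median. The endothelial sum of 10 markers was 4273 to 4413 and then 4422 to 4568, with 3 higher (ESM1, ENG and TIE1) and 3 lower, and CDH5 and VWF never above the median. The lower ones were PECAM1, an adhesion molecule (-0.47, its 3 probe sets down to -1.67), ROBO4 (-0.95) and the VEGF receptor KDR (-0.45). Without probe sets prone to cross-hybridisation 6 markers were tested, 0 of them higher and 3 lower. For fibroblasts 4 of 13 markers were kept, 2 of them lower, with sums of 581 to 614 and 502 to 523. Of 14 lung and thyroid markers 6 were kept. Their sum went from 1202 to 1283 up to 2307 to 2341 through NKX2-1 and SFTA3, while SFTPB, SFTPC, PAX8 and NAPSA were not called (1 lower member without scramble replicate 3) and TG was never above the median. The part of these markers in the changes above was not tested.

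The shCPT-1 line, made with the same vector against CPT1, was tested directly against shCPT-2. This comparison shares the shCPT-2 arrays with the one above, so its values are given side by side and support nothing about it. At an adjusted p under 0.05, 2287 genes were higher in shCPT-2 (17.7%) and 2288 lower (17.8%), of which 33 (0.256%) and 88 (0.683%) changed at least 2-fold. CPT2 was lower in shCPT-2 than in shCPT-1 by 1.22 on the log2 scale (log2 change -1.22 ± 0.10, adjusted p = 2.1e-06). CPT1A was higher by 1.37 ± 0.08 (adjusted p = 1.0e-07), with shCPT-1 arrays at 8.11, 8.10 and 8.34 and shCPT-2 arrays at 9.58, 9.60 and 9.48. FABP5 was 1.25 ± 0.05 higher, so that it was lowest in shCPT-1, intermediate in shCPT-2 and highest in scramble.

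Against shCPT-1 the hypoxia list gave 22 lower and 1 higher of 27, with a median of -0.56. DDIT4 read 11.70, 11.57 and 11.56 in shCPT-1, above scramble, and its change in shCPT-2 was -2.91 ± 0.08 (adjusted p = 7.7e-10, 7.51-fold). NDRG1 (-1.89), VEGFA (-1.95), BHLHE40 (-1.46), CA12, a carbonic anhydrase (-1.26), EPAS1 (-1.24) and HIF1A (-1.19) were also lower, and BNIP3 was lower here (-0.88). ADM, the vessel-active peptide adrenomedullin, was the 1 higher gene, at 0.84, whereas against scramble it was lower (-0.55). LOX changed by -0.0028 (adjusted p = 0.97). Class II genes gave 9 lower and 2 higher of 12, with HLA-DRA at -1.83 ± 0.13, HLA-DMA at -1.45 ± 0.09 and CTSS, with RFXAP, higher (0.53 and 0.64). The interferon list gave 27 lower and 0 higher of 39 by limma (30 and 2 at an unadjusted p under 0.05), with BST2 at -1.22 ± 0.14 and ISG20, a nuclease that was not called against scramble, at -1.24.

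The ATF4 list went the other way against this line. DNA replication genes were again more often higher than lower, and glycolysis genes again more often lower. For ATF4 targets 4 were higher and 18 lower of 37: CTH was lower in shCPT-2 than in shCPT-1 (-0.42) and ASNS too (-0.22). DNA replication gave 22 higher and 1 lower of 38, mitochondrial beta-oxidation 0 higher and 9 lower of 21, and glycolysis 0 higher and 12 lower of 21, by limma. At an unadjusted p under 0.05 the last pair gave 1 and 12, and 1 and 15. Immediate early and MAP kinase feedback genes gave 3 higher and 17 lower of 30. Lysosome genes gave 7 higher and 5 lower of 36 and YAP genes 10 higher and 4 lower of 28.

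The largest falls of shCPT-2 against shCPT-1 were in PTGES, the prostaglandin E2 synthase, DDIT4, S100A4, the small GTPase RASD1 and SLCO4A1-AS1. PTGES read 10.22, 10.45 and 10.39 in shCPT-1 and 7.78, 7.11 and 7.38 in shCPT-2 (-2.93 ± 0.13, adjusted p = 1.0e-08), with scramble between them at 9.10, 9.03 and 8.95. S100A4 read 10.64, 10.49 and 10.49 in shCPT-1, and its change was -2.52 ± 0.06. RASD1 changed by -2.20 ± 0.07 and SLCO4A1-AS1 by -2.14 ± 0.14. The largest rises were in ZNF184 (3.19 ± 0.05), ESM1 (2.06 ± 0.07), ADAMTS1 (1.73 ± 0.08), the cadherin family gene FAT3 (1.63 ± 0.10) and the protease ADAMTS6 (1.54 ± 0.07). ZNF184 was at 7.79 to 7.94 in shCPT-1, so its high level was measured in the shCPT-2 arrays and not in those of scramble or shCPT-1. FAT3 was lower than in scramble (-1.10) and ADAMTS6 higher (0.81). Genes that differed little between both knockdown lines included LOX, RANGRF (-0.06 ± 0.05), LINC00973 (-0.10 ± 0.05), COL6A3 (-0.09 ± 0.08) and MMP9 (-0.07 ± 0.10), none of them called, which does not show that their levels are equal.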

How the data were processed

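Single-colour Affymetrix arrays measured RNA of MDA231 cells in 4 groups of 3. What the authors deposited are linear intensities, made with RMA per the submitters' processing notes; its version, settings and any genome build: not given in the sources used here. The deposited intensities ran from 6.68 to 28791 and were turned into log2 values. Of 54675 probe sets, 62 were controls, 41091 had 1 gene symbol, 1801 several and 11721 none, by the platform's annotation. A probe set was kept if 3 or more arrays showed it above their median (23564 with 1 symbol), and the one brightest on average stood for its gene. Depth here is signal over background, so genes near the medians (74.9 to 77.2 on the linear scale) have less certain folds. The number of arrays limits precision.

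Groups were compared with limma 3.58.1 (R 4.3.3, lmFit and eBayes, all 12 arrays, 8 residual degrees of freedom), two-sided, with Benjamini-Hochberg adjustment over 12886 genes. An exact test of 3 against 3 arrays cannot go below p = 0.1. The steps were tested on simulated data. The labels do not say that replicate numbers pair the arrays, so the main fit used no pairing. Named genes were CPT2, CPT1A, CPT1B, CPT1C, SLC25A20 and SRC, the 20 largest called changes per direction against scramble and 5 per direction against shCPT-1 (groups apart, higher mean at or above the median of all tested genes), and up to 4 members of each of 46 lists with the smallest p. Other list members were named after their values were seen. The 46 lists hold 1131 genes, 927 of them tested, and describe counts with no set test. Comparison, members and lists were chosen with earlier results of these data known, and the promoters shown were chosen after seeing the values. Figures used Python 3.11.15 and matplotlib 3.10.9.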

Additional observations from a re-analysis of the deposited data

How the results depend on the processing

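The alternatives were no filter, averaging the probe sets of a gene, dropping probe sets prone to cross-hybridisation, repeated quantile normalization, centring on array medians, trended robust eBayes, a fit to the compared groups alone, an actin covariate, array weights, a fold threshold, a replicate block and leaving out each array. The median change of all genes moved by under 0.03 under every scaling. With array weights 4499 genes were higher and 4093 lower than in scramble, and 3738 higher and 3731 lower than in shCPT-1. With a change of at least 2-fold required, 100 and 154 genes remained against scramble and 33 and 88 against shCPT-1. Without 1 array the counts were 2785 to 3370 higher and 2175 to 2691 lower than scramble (86 to 117 and 141 to 165 at 2-fold), and 1844 to 2202 and 1811 to 2122 against shCPT-1; the CPT2 change was -1.10 to -0.91.

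Without 1 array SRC ranged from -0.0032 to 0.13 and CD8A from -0.087 to 0.037. The replicate block gave 3196 higher and 2552 lower genes and lost none of the 203 calls among the 211 named genes. Deviations of same-numbered scramble and shCPT-2 arrays correlated at -0.24, -0.0018 and 0.16. Between shCPT-1 and shCPT-2 arrays the values were 0.19, 0.17 and -0.15. With 3 arrays per group they cannot decide whether the numbers pair arrays. Other settings lost 0 to 13 of these calls, 13 with the mean of probe sets. Without cross-hybridising kinds only 135 of the 203 had a value, and 7 were lost. In 7 of the 211 named genes another kept probe set was called the other way (ATP5MC3, EGFR, FYN, NRG1, PRKCA, PSME4, TNIP1). Other list members mentioned above, such as HADHA, are not part of this count. Signs turned with the mean of probe sets in CAV1 (0.051), NRG1 (-0.082), PRKCA (0.044) and PSME4 (-0.22), without cross-hybridising kinds in NRG1 (-0.32) and TNIP1 (0.28), with the actin covariate in CPT1C (0.016), SFTPB (0.019) and CD8A (0.072), with array weights in SRC (-0.045), without scramble replicate 3 in SRC, and for CD8A with quantile normalization (0.00045), centring (0.0022), without scramble replicate 1 (0.0054) and without shCPT-2 replicate 3. CPT1A also lost its call with no filter (adjusted p = 0.051), the mean of probe sets (0.051), centring (0.057) and the actin covariate (0.10). The cause of these changes was not tested.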
